A study of Mus musculus with 8 samples.

Results

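Macrophages attached to adipocytes of epididymal white adipose tissue, termed adhesion-related macrophages (ARMs), were compared between male wild-type C57BL/6J mice on a high-fat diet (HFD) and mice on chow (normal diet, ND). Diets started at 6 weeks of age. The HFD, in which fat supplied 60% of the energy, lasted 8 weeks. No other allele or agent entered the design. ARMs were set free from the floating adipocyte layer of collagenase-digested tissue by vortexing with beads and were sorted by flow cytometry for CD45, CD11b and F4/80. Macrophages of the stromal vascular fraction (SMs) came from the pelleted cells of the same digestion. Each library was made from a pool of 6 HFD or 10 ND mice, so the spread between libraries is that between pools. The comparison rests on 4 RNA-seq libraries, 2 per diet, of the 8 in the series; the other 4 are SMs. With 2 against 2, an exact two-sided permutation test of a single value cannot go below 0.333, so the tests are those of a model fitted across all genes.

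The deposited counts stand in one table per diet, and diet and table cannot be told apart in anything that follows. Genes entered when their Entrez ID stood in both tables, their read counts were whole numbers in all 8 libraries, and the gene length implied by the counts and the FPKM in the first HFD ARM library was 0.9 to 1.1 times that in the first ND ARM library. These conditions kept 6080 of the 16136 genes present in both tables. The kept genes held between 49.0% and 51.4% of the counts of a library, whose totals ran from 14508824 to 19040133, and levels are given below as CPM, the read counts scaled to a common library total over the genes kept. A further filter on low counts left 5713 genes to test. Many gene families were thinned by the first step, and the number of members kept is given with each.

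Adipose tissue macrophages clear dying adipocytes, take up and buffer the lipid that adipocytes release, and secrete cytokines that act on their neighbours. Long-lived resident cells near vessels carry scavenger receptors and Timd4, a receptor for phosphatidylserine, whereas cells derived from blood monocytes enter the tissue when it expands. Feeding fat is known to change the make-up of this population, so a difference in bulk RNA can come from other cells in the sort or from other transcripts per cell, and fewer cells of a type and less RNA per cell cannot be told apart.

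Among the 5713 genes tested, 581 were higher in HFD ARMs (10.2%) and 238 were lower (4.17%) at a fold change above 1.5 and a Benjamini-Hochberg adjusted p below 0.05 by edgeR's quasi-likelihood test. Adjusted p-values below are from this test and, like the SE, measure the spread between these pools. The median difference of the higher genes was 0.98 on the log2 scale and that of the lower genes was -0.78, whereas the median of all genes tested was -0.00. A difference above 2-fold was reached by 284 higher and 70 lower genes. The shares of 10.2% and 4.17% are those against which the counts called in each list below stand. Both HFD libraries lay above both ND libraries for 35.1% of genes and below both for 37.1%, so a lack of overlap by itself was common. The 2 ND ARM libraries differed from each other by more than 1.5-fold in 7.19% of genes and the 2 HFD ARM libraries in 2.64%. On the log2(FPKM + 1) scale, where the median of all genes was -0.14, limma called 215 higher and 276 lower genes, and with a correction for implied gene length edgeR called 473 and 317, so the balance of higher to lower genes depended on the scale.

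**Figure D1:**
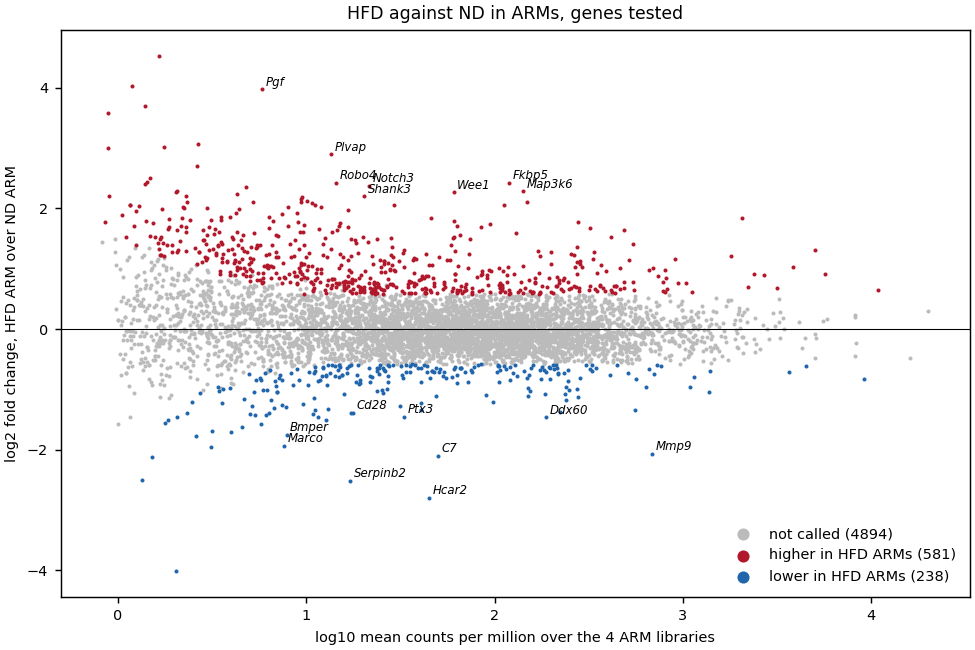
Log2 fold change of HFD over ND ARMs (vertical axis) against the log10 mean CPM over the 4 ARM libraries (horizontal axis) for the genes tested; 581 genes called higher are red, 238 called lower are blue and the rest grey. Named genes are 17 of those with the largest fold changes among called genes with at least 10 CPM in both libraries of the higher group. They run from Pgf at 3.97 to Hcar2 at -2.79, whereas all called genes reached 4.52 and -4.01.

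The difference between diets followed the GC content of the transcripts. With the genes in 10 equal bins by GC content, the median log2 difference was -0.29 in the lowest bin (32.7% to 41.6% GC) and 0.39 in the highest (58.2% to 67.3%). Correspondingly, 2.11% of the lowest bin and 29.5% of the highest bin were called higher. Pearson's r between log2 difference and GC content was 0.41 in ARMs, across 5691 genes, and 0.41 in SMs. A shallower trend appeared between the 2 ND ARM libraries, where the median log2 ratio of the first to the second went from 0.15 in the lowest to -0.12 in the highest bin (r of -0.29 with GC content), and hardly any between the 2 HFD ARM libraries (r of 0.04). A loess correction of each library for GC content and implied length, added after this trend had been seen, called 392 genes higher (6.86%) and 236 lower (4.13%); 349 of the 581 and 147 of the 238 kept their call. The correction is therefore reported below wherever it changed the call of a gene named or the count of a group, and the part of GC content in any single gene was not tested.

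**Figure D2:**
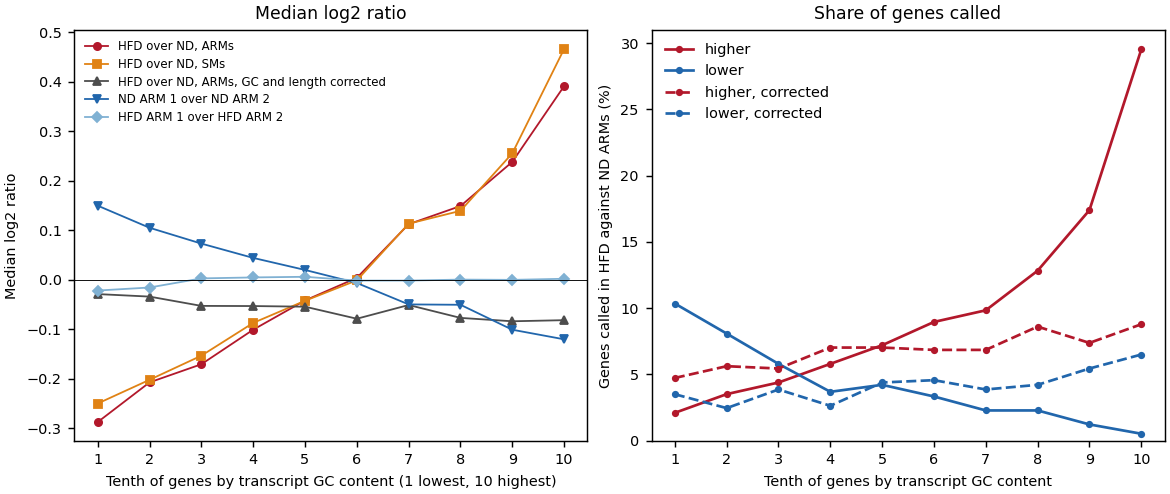
Left, median log2 ratio (vertical axis) in each of 10 bins of genes by transcript GC content (horizontal axis) for HFD over ND in ARMs, in SMs and in ARMs after correction, and for the 2 libraries within each diet. Right, percentage of genes called in ARMs before (solid) and after (dashed) correction; the uncorrected share called higher runs from 2.11% to 29.5%.

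The largest increases among genes with at least 10 CPM in both HFD ARM libraries included several genes of vessels. Pgf, which encodes placental growth factor, a ligand of the VEGF receptor FLT1, measured 0.834 and 0.529 CPM in the ND ARM libraries and 10.2 and 11.6 CPM in the HFD ARM libraries. Its log2 difference of 3.97 ± 0.35 (SE, adjusted p = 4.4e-06) rested on 7 and 4 reads in the ND libraries. Plvap, a structural protein of the diaphragms in endothelial fenestrae, was at 2.74 and 3.71 CPM in ND and 22.3 and 25.2 CPM in HFD ARMs (log2 2.90 ± 0.22). In both genes the HFD libraries stood close together and far above the ND libraries. Fkbp5, a co-chaperone that restrains the glucocorticoid receptor and is itself induced by it, had 36.2 and 39.3 CPM in ND and 239.6 and 163 CPM in HFD ARMs. The increase was 2.43 ± 0.16 (adjusted p = 3.96e-07), and the HFD libraries differed more from each other than the ND libraries did. Map3k6, a stress kinase of the MAP kinase cascade, went from 47.7 and 50.3 CPM to 243 and 229 CPM (log2 2.28 ± 0.09), and Wee1, the kinase that holds CDK1 inactive before mitosis, from 21.2 and 20.9 CPM to 111 and 89.8 CPM (log2 2.26 ± 0.13). Among the 12 largest increases Fkbp5, Map3k6 and Wee1 were the 3 genes with the highest levels in HFD ARMs.

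Promoter windows are shown for Fkbp5 and Map3k6, the 2 of the 12 genes with the highest levels in HFD ARMs; 8 of the 12 genes had a window. The windows run from 250 bases before to 50 bases after a RefSeq transcript start of build GRCm38.p6. A pair of motifs, chosen after the values had been seen, was searched on both strands, the palindrome bound by the glucocorticoid receptor (GNACA, then 3 bases of any kind, then TGTNC, found in 0.475% of all 32851 windows) and the E-box (CACGTG, found in 7.15%), and matches are in capitals. The Map3k6 window on the plus strand at chr4:133240568-133240867 held the palindrome, and the Fkbp5 window on the minus strand at chr17:28486100-28486399 held the E-box and no palindrome.
Map3k6: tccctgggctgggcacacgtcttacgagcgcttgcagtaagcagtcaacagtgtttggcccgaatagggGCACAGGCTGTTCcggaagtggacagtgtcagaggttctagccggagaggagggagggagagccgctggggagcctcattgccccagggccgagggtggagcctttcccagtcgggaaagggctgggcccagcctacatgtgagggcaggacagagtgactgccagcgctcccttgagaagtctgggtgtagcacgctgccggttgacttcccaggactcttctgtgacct
Fkbp5: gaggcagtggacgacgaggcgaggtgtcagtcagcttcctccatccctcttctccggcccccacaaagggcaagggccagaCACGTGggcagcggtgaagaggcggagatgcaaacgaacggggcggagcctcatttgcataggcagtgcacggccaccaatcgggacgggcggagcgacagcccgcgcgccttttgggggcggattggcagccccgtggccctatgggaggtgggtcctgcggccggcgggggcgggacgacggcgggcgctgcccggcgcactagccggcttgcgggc
Across the genes tested with a window, the palindrome occurred in 5 of 446 called higher, in 2 of 179 called lower and in 14 of all 4504. The E-box occurred in 44 of 446 called higher (9.87%) and in 12 of 179 called lower (6.7%), against 529 of all 4504 (11.7%). A match describes the letters and does not show binding.

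The remaining genes of the 12 were Robo4, Notch3, Shank3, Notch4, Cyp4b1, Ctgf and Smad7, with log2 differences from 2.11 to 2.42. Robo4, a guidance receptor of endothelial cells, was at 3.81 and 5.29 CPM in ND and 23.8 and 24.5 CPM in HFD ARMs. Notch3, a receptor characteristic of pericytes and smooth muscle, was at 5.24 and 8.87 CPM in ND and 39.2 and 33 CPM in HFD ARMs, and Notch4, its endothelial relative, at 1.79 and 5.16 CPM in ND and 15.4 and 15.6 CPM in HFD ARMs. The second ND library exceeded the first in all 3 of these genes. Cyp4b1, a fatty acid hydroxylase, had 2.74 and 4.23 CPM in ND and 15.1 and 15.6 CPM in HFD ARMs, and Shank3, a scaffold protein, had 5 and 9.66 CPM in ND and 34.6 and 31.8 CPM in HFD ARMs. Ctgf, a matricellular target of TGF-beta and YAP signalling, had 3.46 and 4.1 CPM in ND and 16.9 and 15.7 CPM in HFD ARMs, and Smad7, an inhibitor of TGF-beta signalling that this pathway induces, had 3.93 and 3.18 CPM in ND and 14.9 and 15.8 CPM in HFD ARMs. For all 12 genes the groups did not overlap, and each kept its call with the correction. The 12 were chosen as called genes with the largest fold changes, so neither is separate support. Both HFD libraries lay above both ND libraries in 35.1% of all genes tested.

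**Figure D3:**
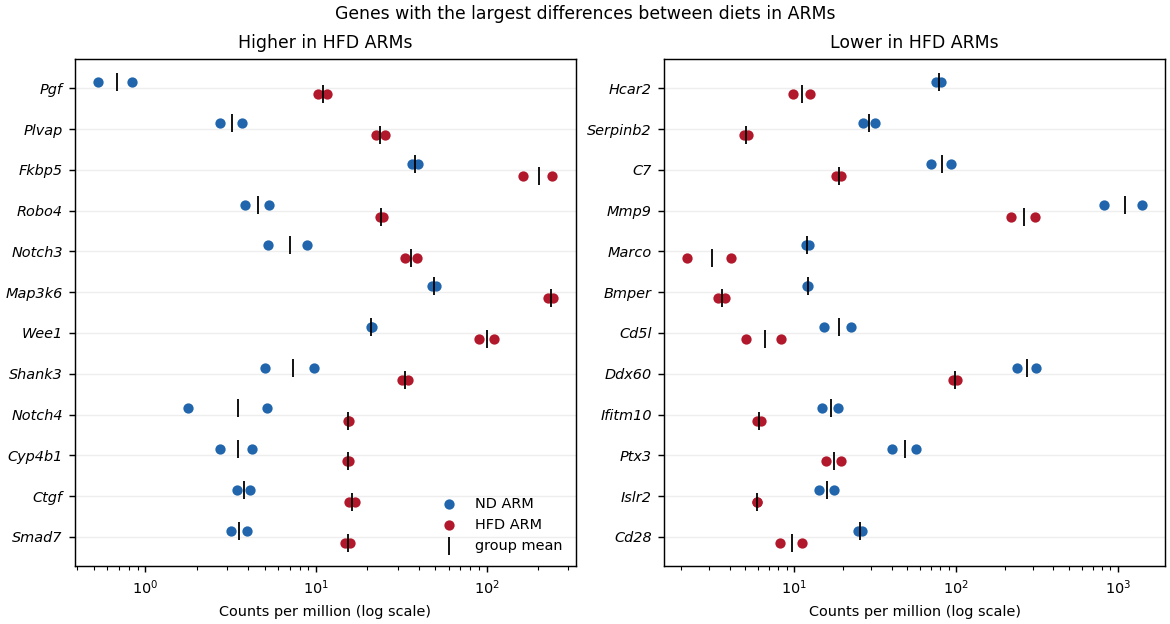
CPM (horizontal axis, log scale) in each ARM library for the 12 called genes with the largest increase (left) and the 12 with the largest decrease (right) among genes with at least 10 CPM in both libraries of the higher group; blue points are ND ARM, red points HFD ARM and black bars group means. In all 24 genes, which were chosen by call and fold change, the 2 red points lie on one side of the 2 blue points.

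Most endothelial markers rose. Of the 18 listed, 11 were kept and tested and 10 were higher (median log2 1.67, against -0.00 for all genes tested), and all 10 kept the call with the correction. Pecam1, an adhesion molecule of endothelial junctions, was at 13.3 and 27.3 CPM in ND and 69.9 and 72.7 CPM in HFD ARMs (log2 1.84 ± 0.21, adjusted p = 3.44e-05). Cdh5, the cadherin of those junctions, was at 21.9 and 41.4 CPM in ND and 93.1 and 84.8 CPM in HFD ARMs, and Vwf, the clotting factor stored in endothelial granules, at 9.17 and 16.1 CPM in ND and 38.7 and 31.1 CPM in HFD ARMs. The HFD libraries lay above both ND libraries in each, and the second ND library exceeded the first. Tek, the angiopoietin receptor, was the exception with 7.98 and 10.9 CPM in ND and 12.4 and 11.4 CPM in HFD ARMs (log2 0.36 ± 0.22, adjusted p = 0.212). Over all 18 markers, including those not kept for the test, the summed level was 62.7 and 127 CPM in ND ARMs and 264 and 240 CPM in HFD ARMs. In these sums and those that follow, CPM is over all genes of both tables.

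Of 12 pericyte and smooth muscle markers 5 were tested and 4 were higher, Notch3 among them. Rgs5, a regulator of G-protein signalling in pericytes, was at 21.6 and 33.6 CPM in ND and 92.9 and 96 CPM in HFD ARMs (log2 1.79 ± 0.15, adjusted p = 3.09e-06). Kcnj8, a potassium channel subunit of pericytes, and Cspg4, the NG2 proteoglycan, differed by 2.01 and 1.61 at levels below 6 CPM, and Des, the muscle intermediate filament desmin, was not called (log2 0.22 ± 0.29). The basement membrane collagens Col4a1 and Col4a2 were higher as well, Col4a1 at 149.5 and 239 CPM in ND and 376 and 408 CPM in HFD ARMs and Col4a2 at 80.9 and 131 CPM in ND and 244 and 244 CPM in HFD ARMs. Of 20 collagen genes tested, 3 were higher, the third being Col5a3, and 1, Col4a5, was lower, not far from the shares over all genes (10.2% and 4.17%). With the correction 2 were higher and 2 lower, as Col5a3 (0.28) lost its call and Col4a6 gained one, without the second ND ARM library 9 were higher, and without the first ND ARM library 2 were higher and 2 lower. Laminin genes gave 1 higher of 7, Lama5, a laminin chain of vessel walls, and with the correction 1 lower as well, Lamc3.

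None of the 7 macrophage markers tested of 18 was called by edgeR or DESeq2, although 4 had an unadjusted p below 0.05. Adgre1, which encodes the sorting antigen F4/80, was at 1887 and 1958 CPM in ND and 2126 and 2106 CPM in HFD ARMs (log2 0.15 ± 0.09, adjusted p = 0.187; the sign turned on the FPKM scale), and Cd14, the lipopolysaccharide co-receptor, at 2096 and 2302 CPM in ND and 1974 and 2024 CPM in HFD ARMs. The summed level of all 18 was 31479 and 31467 CPM in ND ARMs and 29838 and 28204 CPM in HFD ARMs, far above that of the endothelial markers. Of the 14 fibroblast markers tested, edgeR called 2 higher, Pdgfrb and Loxl1, and none lower, and DESeq2 called 1 higher. With the correction 1 was higher and 1 lower, as Loxl1 (0.13) lost its call and Mmp2 gained one. Without the second ND ARM library 4 were higher, whereas without the first ND or the second HFD ARM library 1 was higher and 1, Dcn, lower, and the fibroblast sums of 1348 and 1954 CPM in ND overlapped those of 1288 and 1503 CPM in HFD. No mesothelial marker of 10 tested was called by edgeR or DESeq2 and 5 had an unadjusted p below 0.05, but 2, Upk3b and Wt1, were lower with the correction, 4 were lower without the first ND ARM library and 2 were lower without the first HFD ARM library. Markers of T and NK cells (2 tested) and B cells (1 tested) gave no call by either tool and no unadjusted p below 0.05, dendritic markers gave 1 higher of 4 (Fscn1), lymphatic markers 1 higher of 5 (Flt4), mast cell markers 2 higher of 3 (Kit and Gata2, the latter not with the correction) and eosinophil markers 1 lower of 1 (Ccr3). Without the second ND ARM library 2 dendritic markers were higher, and without any one of the other 3 ARM libraries 1 mast cell marker was.

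Genes of cell adhesion, the property that gave ARMs their name, were higher in 15 of 22 tested of 37 listed and lower in 2. The shares over all genes tested were 10.2% and 4.17%. The median log2 difference was 0.81, and with the correction 13 were higher and 2 lower. The rise was not particular to ARMs, as 12 of these genes were higher and 2 lower in SMs (median log2 0.77). Over the 36 members in both tables, including those not tested, the summed level changed little. It was 4235 and 4297 CPM in ND ARMs and 4366 and 4352 CPM in HFD ARMs. Cdh5 and Mcam among the 15 are carried mainly by vessels. The endothelial sum was also higher in HFD ARMs, but it includes Cdh5 itself and so is not separate from the list. The part of endothelial transcripts in the list's change was not tested. Mcam, the CD146 adhesion molecule of endothelial cells and pericytes, was at 5.24 and 9 CPM in ND and 21.2 and 22.6 CPM in HFD ARMs. Itga2b, Itga3, Itga10 and Itgb4, also among the 15, had at most 6.16 CPM in any ARM library. Some other members stood at higher levels than Cdh5 and Mcam. Cd44, the hyaluronan receptor of leukocytes, measured 656 and 744 CPM in ND and 1168 and 1201 CPM in HFD ARMs (log2 0.77 ± 0.09, adjusted p = 3.47e-05). Itga5, the alpha chain of the fibronectin receptor, measured 573 and 602 CPM in ND and 1075 and 1014 CPM in HFD ARMs (log2 0.84, 0.55 and no longer called with the correction). Vcam1, the ligand of the integrin VLA-4, measured 143 and 163 CPM in ND and 389 and 330.4 CPM in HFD ARMs (log2 1.25 ± 0.10, adjusted p = 1.77e-06). Cav1, the coat protein of caveolae, was at 63.9 and 109.6 CPM in ND and 144 and 150.2 CPM in HFD ARMs (log2 0.78 ± 0.17, adjusted p = 0.00333), and its call was lost without the first ND ARM library (log2 0.43). The 2 lower members were leukocyte integrins, Itgal, the alpha chain of LFA-1, at 25.5 and 38.5 CPM in ND and 18.2 and 21.6 CPM in HFD ARMs, and Itgb7, the beta chain that binds MAdCAM-1, at 18.7 and 22.1 CPM in ND and 12.1 and 14.2 CPM in HFD ARMs; neither was called without the second ND or the first HFD ARM library.

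**Figure D4:**
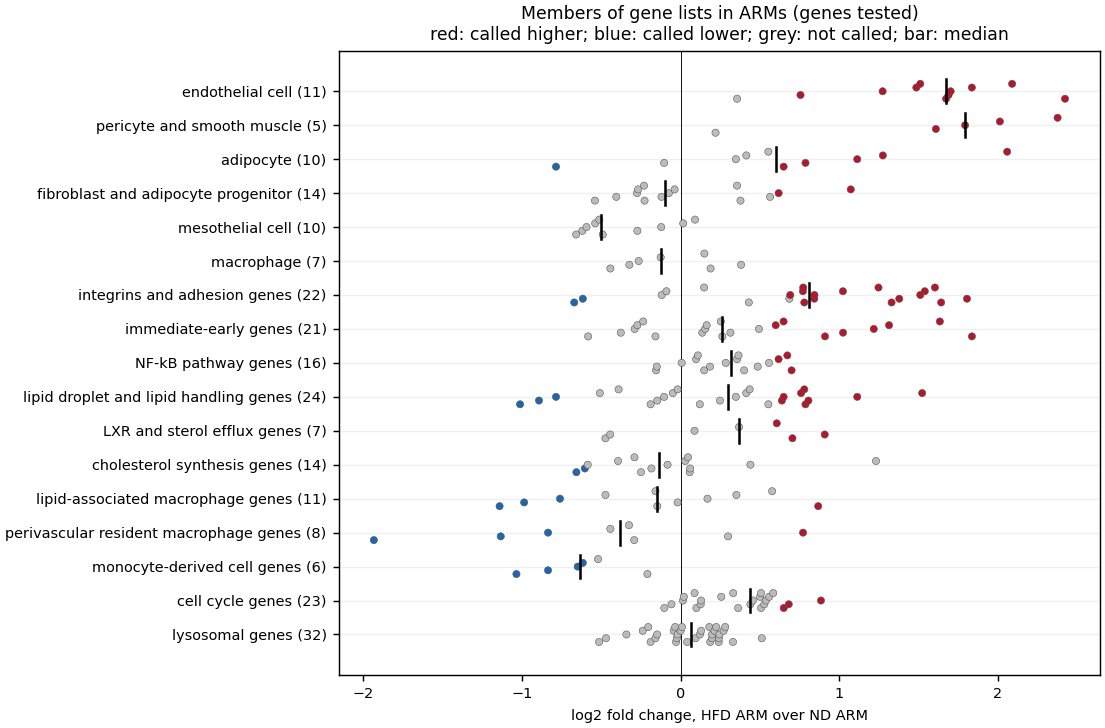
Log2 fold change of HFD over ND ARMs (horizontal axis) for each tested member of 17 gene lists (vertical axis, number tested in parentheses); red points were called higher, blue lower and grey not called, black bars are medians. Endothelial, pericyte and adhesion lists lie to the right with medians of 1.67, 1.79 and 0.81, the monocyte-derived list to the left at -0.63, and lysosomal genes straddle 0 with no call.

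Some adipocyte transcripts were higher and others were not called. Lep, the satiety hormone leptin of adipocytes, was at 10.01 and 12.8 CPM in ND and 43.1 and 51 CPM in HFD ARMs (log2 2.06 ± 0.16, adjusted p = 1.35e-06). Adrb3, the beta-adrenergic receptor of fat, had 2.5 and 3.18 CPM in ND and 6.71 and 6.9 CPM in HFD ARMs. Pnpla2, the lipase ATGL that starts triglyceride breakdown, had 154 and 195 CPM in ND and 382 and 367 CPM in HFD ARMs (log2 1.11 ± 0.10). In these 3 genes both HFD libraries exceeded both ND libraries. Plin1, the perilipin of adipocyte droplets, had 5.24 and 12.4 CPM in ND and 12.7 and 12.8 CPM in HFD ARMs and was not called (adjusted p = 0.162), nor was Lipe, hormone-sensitive lipase, at 78.5 and 109 CPM in ND and 116 and 120.2 CPM in HFD ARMs. Of 10 adipocyte markers tested, 5 were higher and 1 lower, 3 and 1 with the correction. The ND libraries disagreed here: without the first, 3 were higher, and without the second, 8. The summed level of 19 adipocyte markers was 556 and 814 CPM in ND ARMs and 914 and 960 CPM in HFD ARMs.

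Genes of lipid droplets and lipid handling moved in both directions. Counts here, also those of fatty acid oxidation, stand against 10.2% higher and 4.17% lower over all genes tested. Of 24 tested of 41 listed, 8 were higher and 3 lower (median log2 0.30; 6 and 4 with the correction, 5 and 2 by DESeq2), and the higher count ranged from 4 without the first to 11 without the second ND ARM library. The higher genes included the lipase Pnpla2 but also enzymes of triglyceride synthesis. Mgll, which cleaves monoglycerides, was at 20.8 and 42.5 CPM in ND and 91 and 88.2 CPM in HFD ARMs (log2 1.52 ± 0.21). Lpin1, a phosphatidate phosphatase that makes the diacylglycerol used in triglyceride synthesis and a transcriptional coactivator, was at 156 and 166 CPM in ND and 303 and 256 CPM in HFD ARMs (log2 0.81 ± 0.09), and Ppard, the fatty acid-sensing nuclear receptor PPAR-delta, at 77.3 and 81.7 CPM in ND and 130.1 and 137 CPM in HFD ARMs. Each of these kept its call with the correction. Dgat2, the acyltransferase of the last step of triglyceride synthesis, was at 25.9 and 45.7 CPM in ND and 46.8 and 64 CPM in HFD ARMs (log2 0.65 ± 0.21, adjusted p = 0.0249) and lost its call with the correction (0.37), by DESeq2 and without the first ND or the second HFD ARM library. The other higher members were Cidec, a protein of lipid droplets that also lost its call with the correction (0.47) and by DESeq2, and the caveolar genes Cav1 and Cavin2; none of these 3 was called without the first ND ARM library. The 3 lower genes are enzymes of fatty acid and triglyceride synthesis. Acaca, acetyl-CoA carboxylase, was at 81.8 and 83.5 CPM in ND and 47 and 41.3 CPM in HFD ARMs (log2 -0.89 ± 0.10, adjusted p = 3.7e-05). Fasn, fatty acid synthase, was at 124 and 209 CPM in ND and 93.4 and 97.8 CPM in HFD ARMs (log2 -0.79 ± 0.17, not called by DESeq2 or without the second ND ARM library), and Gpam, the acyltransferase of the first step of triglyceride synthesis, at 35.6 and 31.8 CPM in ND and 15.1 and 18.1 CPM in HFD ARMs (log2 -1.01 ± 0.15). Acly, which supplies cytosolic acetyl-CoA, had a log2 difference of -0.51 and entered the calls only with the correction (-0.60). In all 4 the HFD libraries lay below both ND libraries. Fatty acid oxidation gave 2 higher of 15, Ucp2, a mitochondrial carrier, at 1549 and 1786 CPM in ND and 3158 and 3073 CPM in HFD ARMs, and Cpt1b, a mitochondrial fatty acid transferase that lost its call with the correction (0.42); without the second ND or the second HFD ARM library 1 was higher.

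Sterol genes moved in both directions. Sqle, squalene epoxidase, an enzyme of cholesterol synthesis, was at 19.3 and 22.5 CPM in ND and 13.6 and 13.6 CPM in HFD ARMs (log2 -0.60 ± 0.17, adjusted p = 0.0119), and its call was lost without the second ND ARM library or either HFD ARM library. Among LXR and sterol efflux genes, 3 of 7 were higher, the receptors Nr1h3 and Nr1h2 and the exporter Abcg1, and none lower; without the first ND ARM library 1, Abcg1, was higher and 1, Apoe, lower. Abcg1 alone of these kept its call with the correction (96.6 and 79.9 CPM in ND and 156 and 173 CPM in HFD ARMs, log2 0.91 ± 0.10). The other exporter, Abca1, had 1987 and 1765 CPM in ND and 1386 and 1350 CPM in HFD ARMs (log2 -0.44, not called). Apoe, the apolipoprotein that carries exported cholesterol, had a log2 difference of -0.47 and was also called lower with the correction (-1.02).

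Immediate-early genes, transcription factors and phosphatases that respond within minutes to stimuli and to tissue digestion, were higher in 8 of 21 tested and lower in none by edgeR, with a median of 0.26 that turned to 0.03 with the correction, under which 6 were higher. Btg2, an antiproliferative factor just short of the fold threshold at a log2 difference of -0.58, was called lower by DESeq2, with the correction, and without the second ND or the second HFD ARM library. Jund, a partner in AP-1 complexes, was at 796 and 1030 CPM in ND and 3219 and 3252 CPM in HFD ARMs (log2 1.84 ± 0.12, 1.01 with the correction). Fosb, another AP-1 subunit, was at 2554 and 3231 CPM in ND and 7114 and 7157 CPM in HFD ARMs (log2 1.31 ± 0.12). Klf2 and Klf4, factors that restrain inflammatory transcription in macrophages, were at 234 and 242 CPM in ND and 695 and 771 CPM in HFD ARMs and at 1043 and 1150 CPM in ND and 2682 and 2374 CPM in HFD ARMs. Dusp1, a phosphatase that switches off MAP kinases, was at 2463 and 2631 CPM in ND and 5337 and 4938 CPM in HFD ARMs (log2 1.02 ± 0.10). In these 5 genes no HFD value fell within the ND range. The classical member Fos had 2634 and 2795 CPM in ND and 3603 and 3982 CPM in HFD ARMs and stayed below the fold threshold (log2 0.49 ± 0.09). Lineage transcription factors gave 4 higher of 19, Klf2, Klf4, Nr1h3 and Cebpa, the last at 188 and 212 CPM in ND and 468 and 488 CPM in HFD ARMs; 3 of these, all but Nr1h3, kept the call with the correction.

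Inflammatory genes gave a small set, to be read against the 10.2% called higher and 4.17% called lower over all genes tested. Of 20 cytokines and enzymes listed, 8 were tested and 3 were higher. Tnf measured 1711 and 1683 CPM in ND and 2658 and 2831 CPM in HFD ARMs, and its log2 difference of 0.70 became 0.54, below the fold threshold, with the correction. Tnfsf9, the ligand of 4-1BB, changed similarly from 0.68 to 0.42, whereas Nos2, the inducible nitric oxide synthase, kept its call at levels below 4 CPM. Il1a, encoding the alarmin IL-1 alpha, was at 280.5 and 284 CPM in ND and 192 and 207 CPM in HFD ARMs (log2 -0.49 ± 0.08, not called). Of 16 NF-kB pathway genes, 3 were higher and none lower; Tnfaip3, the A20 enzyme that limits the pathway, was the 1 that kept its call with the correction (2329 and 2586 CPM in ND and 3880 and 3893 CPM in HFD ARMs, log2 0.67 ± 0.09), and it was also the 1 called without the first ND ARM library. Of 24 chemokines only 3 were kept; none was called by edgeR or DESeq2 or had an unadjusted p below 0.05, and 1 was higher without the second ND or the first HFD ARM library. Interferon-stimulated genes gave 1 higher of 11, Oasl1, an antiviral 2'-5' oligoadenylate synthetase-like protein, at 145 and 106 CPM in ND and 474 and 382 CPM in HFD ARMs (log2 1.78 ± 0.13); with the correction or without either ND ARM library 2 were higher.

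The largest decreases, by the same minimum of 10 CPM in ND ARMs, included receptors and secreted proteins. Hcar2, the receptor for beta-hydroxybutyrate and nicotinic acid, was at 81.3 and 75.3 CPM in ND and 9.8 and 12.6 CPM in HFD ARMs (log2 -2.79 ± 0.14, adjusted p = 4.64e-08). Serpinb2, the plasminogen activator inhibitor of activated macrophages, was at 31.8 and 26.6 CPM in ND and 5.17 and 4.93 CPM in HFD ARMs (log2 -2.52 ± 0.19). Mmp9, the gelatinase stored in neutrophil granules and also made by macrophages, was at 819 and 1406 CPM in ND and 306 and 220.3 CPM in HFD ARMs (log2 -2.07 ± 0.20). The groups lay apart in all 3, with the second ND library highest for Mmp9. The summed neutrophil markers, of which Mmp9 is the most abundant, were 514 and 838 CPM in ND and 280 and 228 CPM in HFD ARMs. This sum, on the CPM scale over all genes of both tables, includes Mmp9 itself, so it gives no separate measure of neutrophils. Their part in the decrease of Mmp9 was not tested. C7, a component of the membrane attack complex, was at 70.3 and 92.8 CPM in ND and 18.3 and 19.4 CPM in HFD ARMs, and Ptx3, a soluble pattern recognition protein, at 40.3 and 57 CPM in ND and 15.7 and 19.5 CPM in HFD ARMs. Ddx60, a helicase of antiviral sensing, was at 311 and 239 CPM in ND and 102 and 96.1 CPM in HFD ARMs (log2 -1.46 ± 0.11), and Cd28, the co-stimulatory receptor best known from T cells, at 26.3 and 24.9 CPM in ND and 11.2 and 8.21 CPM in HFD ARMs. The other 5 of the 12, Marco, Bmper, Cd5l, Ifitm10 and Islr2, had log2 differences from -1.93 to -1.41. All 12 kept their call with the correction, but they were chosen as called genes with the largest fold changes.

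Genes of resident and of monocyte-derived cells were both among the lower ones. Timd4 was at 377 and 386 CPM in ND and 189.6 and 155 CPM in HFD ARMs (log2 -1.13 ± 0.10, adjusted p = 3.29e-06). Marco, a scavenger receptor for bacteria and particles, was at 11.9 and 12.3 CPM in ND and 4.07 and 2.19 CPM in HFD ARMs, and F13a1, the transglutaminase chain of clotting factor XIII, at 12689 and 10856 CPM in ND and 6679 and 6401 CPM in HFD ARMs (log2 -0.84 ± 0.11). These were the 3 lower of 8 perivascular resident macrophage genes tested, while Txnip, a thioredoxin inhibitor, was higher; with the correction Gas6, a ligand of TAM receptors, made 4 lower. The defining members Lyve1 and Mrc1 had log2 differences of -0.33 and -0.44 and were not called. Of 6 monocyte-derived genes tested of 20 listed, 4 were lower and none higher (median log2 -0.63; 3 lower with the correction). Fn1, fibronectin, was at 1656 and 2052 CPM in ND and 783 and 1012 CPM in HFD ARMs (log2 -1.04 ± 0.12, adjusted p = 5.41e-05), and Clec4e, the receptor Mincle for mycobacterial glycolipid and dead cells, at 279 and 249 CPM in ND and 157 and 177 CPM in HFD ARMs (-0.45 and not called with the correction). F13a1 belongs to both lists. Without the first HFD ARM library 2 of the monocyte-derived genes stayed lower.

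Lipid-associated macrophage genes, the set that marks foam-like cells of obese fat, gave 1 higher and 3 lower of 11 tested of 33 listed, and 0 higher and 3 lower with the correction, when Apoe took the place of Msr1; without the second ND ARM library 2 were higher and 2 lower, and without the first HFD ARM library 2 were higher. Mmp12, the macrophage elastase, was at 358 and 372 CPM in ND and 145 and 219.9 CPM in HFD ARMs (log2 -0.99 ± 0.14). Msr1, the class A scavenger receptor for modified lipoproteins, was at 566 and 474 CPM in ND and 308 and 301 CPM in HFD ARMs (log2 -0.76, -0.48 with the correction). Dcstamp, which drives fusion of macrophages into giant cells, was at 9.89 and 20.4 CPM in ND and 6.16 and 7.34 CPM in HFD ARMs. Acp5, the tartrate-resistant phosphatase of osteoclasts and foam cells, was at 56.5 and 58.5 CPM in ND and 102 and 106 CPM in HFD ARMs and lost its call with the correction (0.52). Of 32 lysosomal genes tested none was called in either direction by edgeR or DESeq2, 17 had an unadjusted p below 0.05, and their log2 differences lay between -0.51 and 0.51. Iron genes gave 2 lower of 6, Slc40a1, the iron exporter ferroportin, at 242 and 215 CPM in ND and 135 and 119 CPM in HFD ARMs, and Tfrc, the transferrin receptor, at 717 and 558 CPM in ND and 350.3 and 413 CPM in HFD ARMs; ferroportin kept its call with the correction and Tfrc did not, and without the first ND ARM library 1 was lower. Complement genes gave 2 lower of 5, C2 and Cfb, which cleave in the classical and the alternative pathway, C2 at 41.8 and 47.1 CPM in ND and 29.4 and 24.4 CPM in HFD ARMs and Cfb at 257 and 224 CPM in ND and 153 and 151 CPM in HFD ARMs; without the first ND or the second HFD ARM library 1 was lower. Of 23 cell cycle genes tested, 3 were higher (median log2 0.44), Aurka, Ccnb1 and Cdk1, all below 25 CPM, and 6 with the correction; the count was 8 without the first and 1 without the second ND ARM library, and 6 without the first and 0 without the second HFD ARM library. Mki67, the proliferation antigen, had 369 and 348 CPM in ND and 439.6 and 475 CPM in HFD ARMs (log2 0.36 ± 0.08, not called). The 3 higher of 23 cell cycle genes were not far from the share of 10.2% over all genes tested. For the lower iron and complement genes that share was 4.17%.

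In SMs 679 of 5624 genes tested were higher (12.1%) and 247 lower (4.39%). Of the 581 genes higher in ARMs, 559 were tested in SMs and 404 were called higher there, and of the 238 lower in ARMs, 233 were tested and 126 were called lower. ARMs and SMs of a diet stand in the same table, so any difference between tables enters both comparisons, and the difference between them was tested by the interaction of diet and cell fraction over all 8 libraries. By edgeR 3 genes had a greater diet difference in ARMs (0.052%) and 7 a smaller one (0.121%) of 5765 tested, with 424 at an unadjusted p below 0.05.

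Leptin and perilipin 4 led the genes with a greater difference in ARMs. Lep was at 4.08 and 6.27 CPM in ND and 5.36 and 6.42 CPM in HFD SMs, and these ranges overlapped (difference of the log2 differences 1.87 ± 0.32, adjusted p = 0.0182). Plin4, a droplet coat protein of adipocytes, was at 29.2 and 48.4 CPM in ND and 55.2 and 46.9 CPM in HFD ARMs, whose ranges overlapped, and at 15.1 and 21.2 CPM in ND and 6.43 and 5.67 CPM in HFD SMs. Its log2 difference was 0.41 (not called) in ARMs and -1.55 (called lower) in SMs, and the difference between these was 1.99 ± 0.32 (adjusted p = 0.0133). The third, Rps19, a ribosomal protein with processed copies that can share reads, differed by 0.75 ± 0.11.

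Of the 7 genes with a smaller difference in ARMs, 6 were called higher with HFD in SMs. The matrix genes Fndc1, Cilp and Fbn1 were among them, and each stood at higher CPM in both ND ARM libraries than in both ND SM libraries. Fndc1 was at 13.5 and 18.7 CPM in ND and 14 and 16.3 CPM in HFD ARMs and at 5 and 5.14 CPM in ND and 17.5 and 17.7 CPM in HFD SMs, and Cilp at 15.8 and 22.6 CPM in ND and 24.2 and 30.6 CPM in HFD ARMs and at 5 and 3.51 and 19.1 and 20.8 CPM in SMs. Fbn1, the microfibril protein fibrillin 1, was at 85.9 and 120.3 CPM in ND and 94.2 and 105 CPM in HFD ARMs, against 48.1 and 52 CPM and 107 and 123 CPM in SMs (difference -1.25 ± 0.18, adjusted p = 0.00866). Gfpt2, the first enzyme of hexosamine synthesis, was the 1 of the 7 called lower in ARMs and higher in SMs, with 40.7 and 60.6 CPM in ND and 33.8 and 32.8 CPM in HFD ARMs, and 12.5 and 14.8 CPM and 25.8 and 27.4 CPM in SMs. The fibroblast marker sum was 582 and 734 CPM in ND SMs and 950 and 930 CPM in HFD SMs. This sum includes Fbn1 itself, so for that gene it gives no separate measure of fibroblasts. The part of fibroblasts in these differences was not tested. Thbd, thrombomodulin, rose in both fractions, from 288 and 329 to 640.4 and 589 CPM in ARMs and from 218 and 241 to 874 and 792 CPM in SMs. Hbegf and Errfi1, a ligand of the EGF receptor and an inhibitor of that receptor, had differences between the fractions of -0.61 and -0.65. The counts of 3 and 7 became 0 and 0 without the first HFD ARM library or without the first ND SM library, 1 and 3 without the second ND SM library, 5 and 64 without the first and 26 and 18 without the second ND ARM library, and 4 and 24 without the second HFD SM library.

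**Figure D5:**
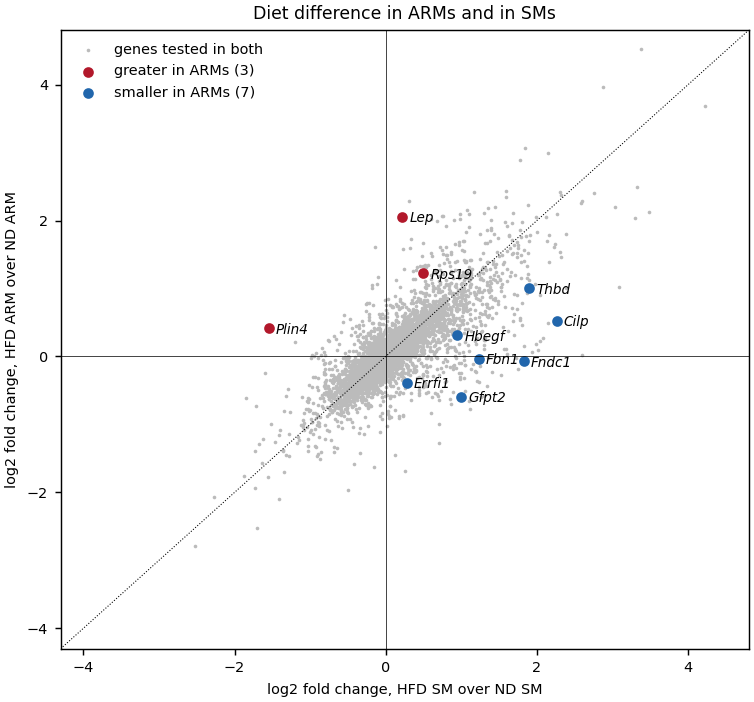
Log2 fold change of HFD over ND in ARMs (vertical axis) against that in SMs (horizontal axis) for genes tested in both; the dotted line marks equal differences, and the genes with a greater (red, 3) or smaller (blue, 7) difference in ARMs are named. Lep lies at 2.06 in ARMs and 0.22 in SMs, and Plin4 at 0.41 and -1.55.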

How the data were processed

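RNA-seq was analysed in 8 libraries of macrophages sorted from mouse epididymal fat. The authors deposited, in one table per diet, estimated counts and FPKM (fragments scaled by gene length and library total) per gene, with reads mapped to mm10 per the labels; the aligner, the counter and whether it used strand are not given in the sources used here, so overlapping or near-identical genes may share reads. The kept whole-number counts were normalised by TMM and tested with edgeR 4.0.16 (filterByExpr, quasi-likelihood F test, Benjamini-Hochberg adjustment) on 4 ARM libraries, and by interaction on 8 libraries (R 4.3.3). The biological coefficient of variation was 7.09%. Library totals from 14508824 to 19040133 leave genes of few reads imprecise. Scripts were tested on simulated counts. Alternatives were DESeq2 1.42.0, limma 3.58.1 on log2(FPKM + 1), other filters, length limits and normalisations, a replicate block and each library left out. A further one, chosen after seeing the data, was a loess correction for GC content (of the longest GENCODE transcript of a gene) and implied length. Named are list members called, defining members, the 12 largest called genes per direction with at least 10 CPM in both libraries of the higher group, and the 6 largest differences between fractions; a few others were chosen after their values were seen. Members and lists were chosen with earlier results of these data known. For 31 genes symbols were taken from RefSeq by Entrez ID. Some items withheld for evaluation are not reported here.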

Additional observations from a re-analysis of the deposited data

Results flagged for a closer look

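The diet difference itself differed between ARMs and SMs for 10 genes by the interaction of diet and cell fraction over all 8 libraries (edgeR's quasi-likelihood test, Benjamini-Hochberg adjusted p below 0.05 and a fold above 1.5). The log2 difference in ARMs minus that in SMs was 1.99 for Plin4, 1.87 for Lep and 0.75 for Rps19. It was -1.87 for Fndc1, -1.71 for Cilp, -1.56 for Gfpt2, -1.25 for Fbn1, -0.87 for Thbd, -0.65 for Errfi1 and -0.61 for Hbegf. Each kept its sign in all 14 alternatives run and its call in between 9 (Hbegf) and 12 (Rps19 and Thbd) of them. Adipocyte markers summed to 354 and 420 CPM in ND SMs and 414 and 398 CPM in HFD SMs. In ARMs the sums were 556 and 814 CPM in ND and 914 and 960 CPM in HFD. These sums include Lep and Plin4 themselves, so they give no separate measure of adipocyte transcripts. The part of adipocyte transcripts in the Lep and Plin4 differences was not tested. Reads of Rps19 can be shared with processed copies of the gene, so its value is uncertain.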

How the results depend on the processing

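The 581 higher and 238 lower genes became 251 and 94 with a narrower window of implied length ratios (2517 genes tested), 1719 and 731 with every shared gene and rounded counts (13127 tested), and 805 and 378 with no limit on that ratio (7762 tested). On log2(FPKM + 1) limma gave 215 and 276 genes, without a filter 220 and 280, and on log2(FPKM + 0.1) 286 and 422. Leaving out 1 library gave 466 to 717 higher and 199 to 319 lower genes. Same-numbered ND and HFD ARM libraries, which are pools of different mice, deviated with a correlation of -0.02, and the replicate block gave 598 and 240. For ARMs and SMs of the same number the correlation was 0.243 in ND and 0.0636 in HFD. The labels do not say whether such libraries came from the same pool of mice, and the main interaction fit did not pair them. The 3 genes with a greater and 7 with a smaller difference in ARMs became 12 and 50 with the replicate block, 8 and 13 without a length limit, 3 and 21 by DESeq2 and 3 and 20 with the correction for GC content and length; leaving out 1 library gave 0 to 26 and 0 to 64. Adgre1 (0.15) turned to -0.0052 in each of the 3 limma settings. The Fbn1 log2 fold change (-0.04) turned to 0.0432 with a length correction, and leaving out 1 library gave -0.2726 to 0.2147. Fndc1 (-0.07) ranged from -0.2986 to 0.1734 in the same way. The Des log2 fold change (0.22) turned to -0.0477 with the correction and ranged from -0.1938 to 0.7378. None of the called genes named reversed. The causes of these changes were not tested, except that fewer or more genes entered under the length settings. With 2 pools per group and one table per diet, diet, table and pool cannot be told apart further.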

Other observations

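Genes that glucocorticoids are known to induce were listed after Fkbp5, Map3k6 and their values had been seen, so their count is a description. Of 20 listed, 9 were tested and 8 were higher in HFD ARMs, against 10.2% of all genes tested. These 8 include Fkbp5 and Map3k6, whose values prompted the list. The median log2 difference was 1.24, and 7 were higher with the correction for GC content and length. In HFD SMs 8 were higher, against 12.1% of all genes tested there. Per1, a clock repressor that glucocorticoids also induce, was at 484 and 648 CPM in ND and 1258 and 1251 CPM in HFD ARMs (log2 1.16 ± 0.12), and Tsc22d3, the glucocorticoid-induced leucine zipper protein, at 154 and 157 CPM in ND and 494 and 485 CPM in HFD ARMs (log2 1.67 ± 0.08). Klf9, a further target, was at 170.1 and 189.9 CPM in ND and 414 and 364 CPM in HFD ARMs, and Angptl4, an inhibitor of lipoprotein lipase, at 28.6 and 60.3 CPM in ND and 173 and 189.7 CPM in HFD ARMs. In all 4 genes both HFD libraries exceeded both ND libraries. Of 11 circadian clock genes tested, a list also made after the values were seen, 3 were higher (Per1, Per2 and Wee1) and none lower (6 at an unadjusted p below 0.05; DESeq2 also called 3 higher and 0 lower), with a median of -0.13.

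Small lists of stress, metabolism and clearance genes gave 1 to 4 calls each, against 10.2% higher and 4.17% lower over all genes tested. Heat shock genes were higher in 2 of 12 (Hsf1 and Serpinh1), endoplasmic reticulum stress genes in 2 of 22, with Herpud1 at 334 and 392 CPM in ND and 648 and 587 CPM in HFD ARMs, and hypoxia response genes in 2 of 12, with Ndrg1 at 28.5 and 36.8 CPM in ND and 80.2 and 89.2 CPM in HFD ARMs and Ddit4 at 1.79 and 3.18 CPM in ND and 6.6 and 4.93 CPM in HFD ARMs. With the correction 1 heat shock gene (Hsf1), 1 endoplasmic reticulum stress gene (Herpud1) and 1 hypoxia gene (Ndrg1) stayed higher and 1 hypoxia gene (Egln1) was lower, and by DESeq2 1 hypoxia gene was higher. Of 11 glycolysis genes 1 was lower, Hk2, the inducible hexokinase, at 188 and 201 CPM in ND and 123 and 132 CPM in HFD ARMs, and with the correction 2 (Hk2 and Hk3). Efferocytosis genes gave 3 higher and 1 lower of 12, the higher ones including Mfge8, a bridge to phosphatidylserine, at 51.2 and 67 CPM in ND and 116 and 103 CPM in HFD ARMs and Stab2, a scavenger receptor of sinusoidal endothelium, at 4.41 and 4.9 CPM in ND and 11.3 and 14.2 CPM in HFD ARMs, and 3 higher and 2 lower with the correction. Leaving out a library moved these small counts: to 1 for heat shock genes without the first ND or the second HFD ARM library, to 1 for endoplasmic reticulum stress and for hypoxia genes without the first ND or the first HFD ARM library, to 0 lower glycolysis genes without the second ND or the first HFD ARM library, and to 5 higher efferocytosis genes without the second ND ARM library. Among Fc, Toll-like and scavenger receptors 3 of 17 were lower (Msr1, Marco and Cd5l; 2 with the correction, without Msr1) and none was higher. The 14 genes of antigen presentation by MHC class II summed to 15853 and 20279 CPM in ND ARMs and 28408 and 30508 CPM in HFD ARMs; 2 of them, H2-Ob and Cd86, met the conditions for the test and neither was called, so the sum has no test here.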
